A study of Mus musculus with 2 samples.

Results

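Levels of 10 genes of the interleukin-1 family were described cell type by cell type in mouse brain tumours: the agonists Il1a and Il1b, the receptor antagonist Il1rn, the signalling receptor Il1r1 with its accessory chain Il1rap, the decoy receptor Il1r2, the cytokine Il33 with its receptor Il1rl1, and the cytokine Il18 with its receptor chain Il18r1. They are 10 of the 31053 genes in the deposited matrices, were taken as a list of names and played no part in sorting the cells. Single-cell RNA was captured in droplets (10x Genomics) from tumours of C57BL/6 mice that carry mutant IDH1 (mIDH1), collected once the animals were symptomatic. There were 2 libraries, replicates 1 and 2, of this 1 group, and no other genotype, treatment or time point was compared. The labels do not say whether the libraries came from separate animals, so spreads and p-values measure only how these libraries differ, which may be technical. They name no promoter, vector, tumour clone or age.

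Interleukin-1 alpha and beta bind the same receptor, IL-1R1, which signals only after the accessory protein IL-1RAP joins it. The antagonist IL-1Ra occupies IL-1R1 without recruiting the accessory chain, and IL-1R2 binds the agonists but lacks a signalling domain, so both limit the response. IL-33 uses ST2 (the product of Il1rl1) with the same accessory chain, IL-18 uses IL-18R1 with its own accessory chain, and the IL-1 beta and IL-18 precursors are cleaved by caspase-1 in inflammasomes.

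Cells were sorted into 8 gates by transcripts of other genes. Barcodes with at least 200 genes and at most 15% mitochondrial UMIs (unique molecular identifiers, one per captured transcript) were kept. The tumour gate took at least 1000 CPM (UMIs per 1000000) of Nras, the C1qa gate at least 5 UMIs of C1qa, divided into Cx3cr1-high and Cx3cr1-low at 2 UMIs of Cx3cr1, and the monocyte gate at least 1 UMI of Ly6c2 with at least 5 of Lyz2. The neutrophil gate took at least 10 UMIs of S100a8 and S100a9 together, and the basophil, dendritic cell (DC) and T cell gates at least 1 UMI of Mcpt8, Ccr7 and Cd3e. Of 4970 barcodes 3186 were kept, and 2618 passed exactly 1 gate and entered every sum below. They were 1816 in the tumour gate, 346 Cx3cr1-high, 95 Cx3cr1-low, 64 monocyte, 31 neutrophil, 138 basophil, 76 DC and 52 T barcodes. A further 237 passed more than 1 gate, 134 of them tumour and basophil together, and 331 passed none.

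In mm10 (GRCm38), Il1r2 (chr1:40074079-40125231), Il1r1 (chr1:40225080-40317257), Il1rl1 (chr1:40429570-40465415) and Il18r1 (chr1:40465552-40500854) lie in a row on the plus strand. Il1a (chr2:129299610-129309972) and Il1b (chr2:129364570-129371139) are neighbours on the minus strand, and Il1rn lies apart (chr2:24336853-24351494). Il1rap (chr16:26581704-26730117), Il18 (chr9:50554827-50581840) and Il33 (chr19:29925114-29960718) stand on other chromosomes.

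The libraries held 63001350 and 58915133 UMIs, and 10 barcode sequences occurred in both. Median depth ran from 2074 UMIs per barcode in the neutrophil gate to 44092 in the tumour gate. Marker lists set beside the gates showed where other cell types were counted. The tumour markers Sox2, Nes and Tnc summed to 172 and 173 CPM in the tumour gate but also to 77.6 and 70.5 CPM in the basophil gate, where 4 barcodes with at least 5 such UMIs carried 288526 of the 823936 UMIs. Mast cell markers summed to 2697 and 938 CPM in the basophil gate, and NK cell markers to 1400 and 1542 CPM in the T gate. In the Cx3cr1-low gate 79 of 95 barcodes lacked Malat1, an RNA retained in the nucleus, and red cell haemoglobin reached 12065 CPM in replicate 1. The microglia and macrophage markers of both C1qa gates were high together, so neither is called microglia or macrophage here. The part of any of these in the results was not tested unless a value is given.

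**Figure D1:**
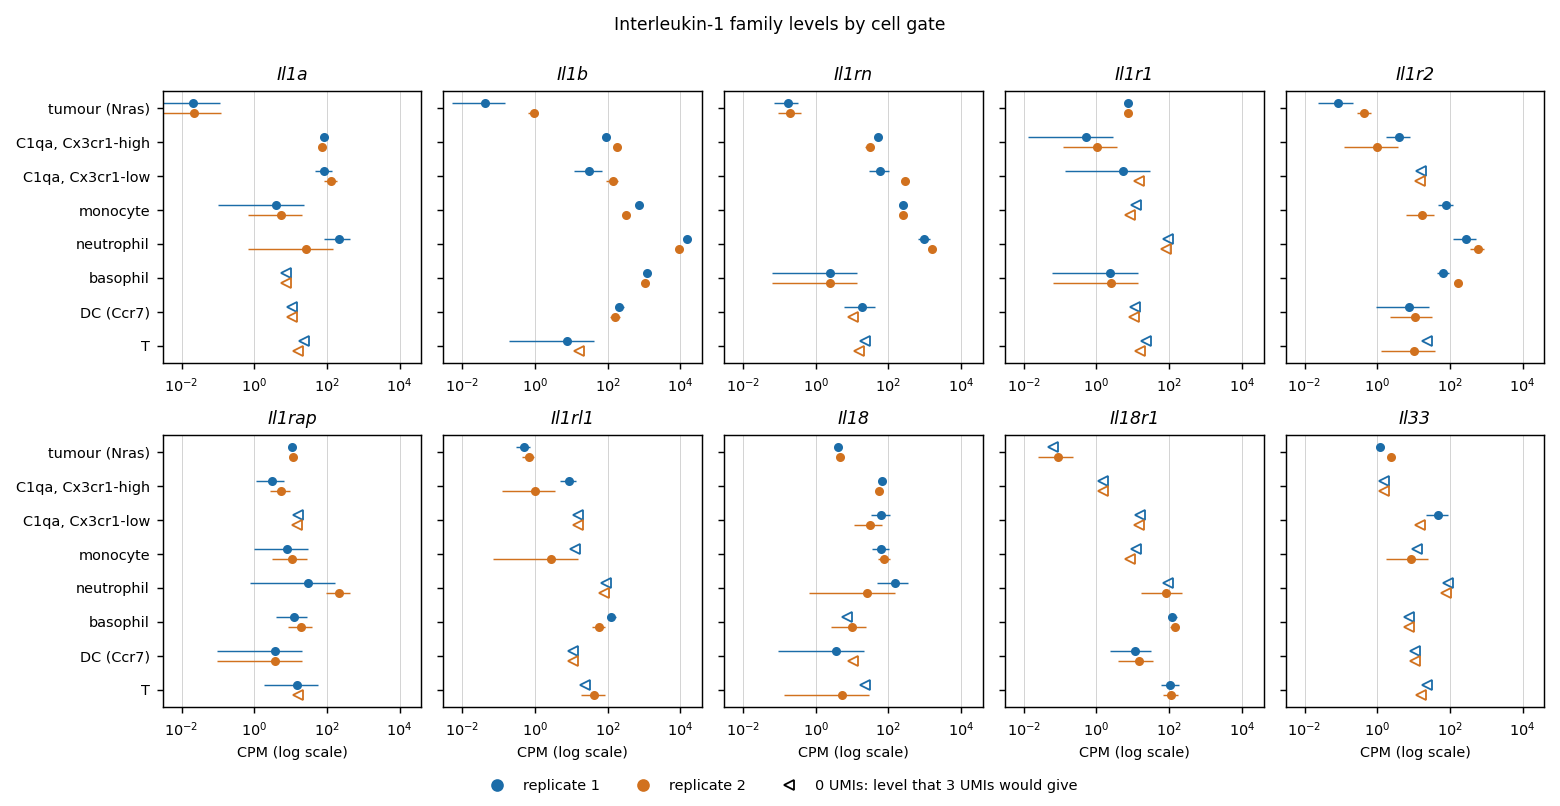
Level of each of the 10 genes in the 8 gates, in CPM of the gate's summed UMIs on a log axis, with 1 point per library and exact 95% counting intervals; open triangles mark 0 UMIs, drawn at the level that 3 UMIs would give. Il1b peaked in the neutrophil gate at 15583 and 9399 CPM, while Il1r1 stood at 7.30 and 7.56 CPM in the tumour gate.

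Il1b was highest in neutrophils, then in basophils and monocytes, and was nearly absent from tumour and T cells. The neutrophil gate held 15583 CPM in replicate 1 and 9399 CPM in replicate 2, and 30 of its 31 barcodes had at least 1 UMI. A single neutrophil barcode of replicate 1 held 227 Il1b UMIs. Without the top barcode of each library the gate had 9749 and 8366 CPM. The basophil gate held 1173 and 1033 CPM (1103 ± 98.7, SD, n = 2), and the monocyte gate 708 and 315 CPM. Neutrophils lay above all other gates in both libraries, and basophils above the monocytes in both. The DC gate followed with 212 and 159 CPM, the Cx3cr1-high gate with 87.7 and 184 CPM, and the Cx3cr1-low gate with 31.3 and 136 CPM. These last gates overlapped, and in the Cx3cr1-high gate of replicate 2 a single barcode carried 146 of the 365 UMIs. The T gate had 1 UMI in all, and the tumour gate 0.042 and 0.914 CPM with a UMI in 9 of 1816 barcodes despite its depth. With every barcode thinned to 1000 UMIs, 96.4% of neutrophil, 27.2% of basophil, 22.3% of monocyte and 0.0435% of tumour barcodes would show Il1b, against 96.8%, 34.1%, 46.9% and 0.496% unthinned.

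Differences between gates were tested with edgeR's quasi-likelihood test on the UMI sums, with Benjamini-Hochberg adjustment over 13468 genes, and called genes had an adjusted p below 0.05 and differed by at least 1 on the log2 scale. Neutrophils against monocytes gave the widest set of calls between myeloid gates: 5 of the 9 testable members were higher, Il1a, Il1b, Il1rn, Il1r2 and Il1rap, against 7.96% of all genes called in either direction. With each barcode in every gate the Il1b call held and the other 4 were lost, Il1a at 1.10 (adjusted p = 0.482) among them, whose call rests on 8 against 3 UMIs. For Il1b the log2 fold change was 4.18 ± 0.47 (SE, edgeR adjusted p = 2.91e-06), while the median over all genes was -0.96, or -0.60 with DESeq2 size factors in place of TMM. Of all genes called in that comparison 27.1% were higher, or 42.6% with DESeq2 size factors. Basophils against neutrophils gave 3 calls among 9 testable members, all lower, where 9.76% of genes were called (70.2% of them higher, or 57.0% with DESeq2 size factors), and Il1b differed by -2.95 ± 0.44 (SE, edgeR adjusted p = 7.40e-05). Basophils against monocytes gave 1.22 ± 0.45 (SE, edgeR adjusted p = 0.0652), so that difference was not called. Against the mean log2 level of the other immune gates, Il1b was the single call in basophils among the 2 members testable there, Il1b and Il18, where 17.2% of all genes were called, with a log2 fold change of 2.78 ± 0.39 (SE, edgeR adjusted p = 1.74e-05). Counting each barcode in every gate it passes, which adds the tumour-and-basophil barcodes, lowered Il1b in the basophil gate to 115 CPM and turned this difference to -1.33, and lowered the neutrophil gate to 4107 CPM.

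The Il1b of the basophil gate was found in 29 of 74 barcodes in replicate 1 and 18 of 64 in replicate 2. All of them carry Mcpt8, a basophil protease, and barcodes that also passed the monocyte or neutrophil gate were left out, so Mcpt8, Lyz2 and S100a8 say nothing further. Of genes the gates did not use, the barcodes with Il1b held 147 and 76 UMIs of Gata2, a transcription factor of basophils and mast cells, present in 28 and 15 of them. They held 0 UMIs of Chil3 (monocytes), Csf3r (neutrophils), H2-Aa (antigen presentation) and the mast cell protease Cma1, though Plac8 of the monocyte list reached 154 and 147 UMIs. Barcodes with at least 5 UMIs of Mcpt8 had 1867 and 2795 CPM of Il1b, those with 2 to 4 had 312 and 140 CPM, and those with 1 had 922 and 110 CPM. Since Mcpt8 set the gate, these values only describe the level in each group. The 15 and 10 barcodes with 2 to 4 UMIs of Mcpt8 held 166404 and 135656 UMIs of all genes. The 51 and 37 with at least 5 held 216959 and 139874. The 4 barcodes with tumour markers were not taken out of the groups, and their part in these levels was not tested. Leaving out the barcode with the most Il1b in each library gave 947 and 820 CPM, and leaving out the 4 barcodes with tumour markers gave 1759 and 1633 CPM.

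**Figure D2:**
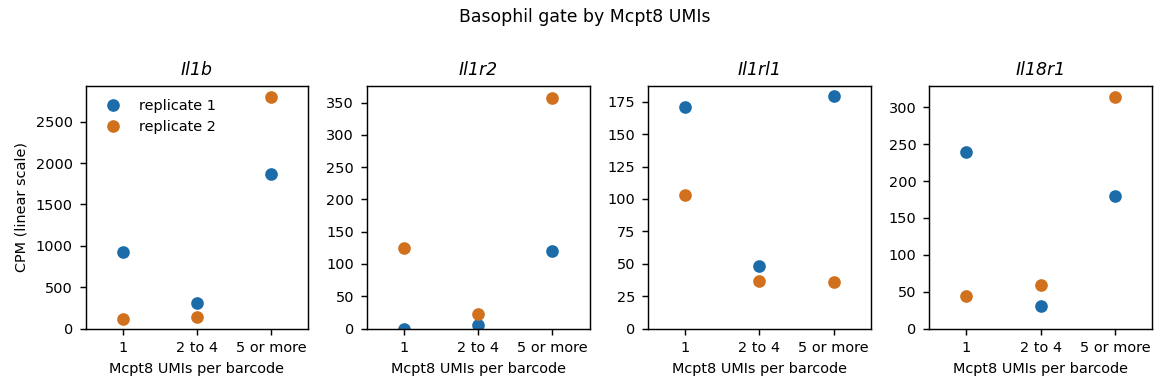
CPM (linear axis) of Il1b, Il1r2, Il1rl1 and Il18r1 in basophil-gate barcodes grouped by their UMIs of Mcpt8, the gene that set the gate, 1 point per library. Il1b was highest in barcodes with 5 or more Mcpt8 UMIs, at 1867 and 2795 CPM, whereas Il1rl1 showed no such order in replicate 2. The 4 barcodes with tumour markers are included, and their part in the levels was not tested.

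Il1a followed another pattern and was counted mostly in the C1qa gates. The Cx3cr1-high gate had 83.2 and 72.5 CPM, with a UMI in 82 of 178 and 74 of 168 barcodes, and the Cx3cr1-low gate 83.5 and 131 CPM. These did not differ beyond their spread (log2 fold change -0.51 ± 0.31, SE, edgeR adjusted p = 0.538). The Cx3cr1-high gate alone held 67.5% of all 458 Il1a UMIs in kept barcodes. Monocytes had 4.09 and 5.53 CPM, and against the Cx3cr1-low gate Il1a was lower by a log2 fold change of -4.51 ± 0.63 (SE, edgeR adjusted p = 9.63e-05) while Il1b was higher by 2.47 ± 0.65 (SE, edgeR adjusted p = 0.0214). These were the 2 calls among 9 testable members in that comparison, where 6.73% of genes were called, and DESeq2 gave an adjusted p of 0.0869 for Il1b. With each barcode in every gate, the Il1b difference was -0.02 and the Il1a difference -2.07 (adjusted p = 0.056). Neutrophils had 213 and 26.6 CPM from 8 UMIs, 6 of them in 1 barcode. Basophils, DCs and T cells had 0 UMIs, which allows up to 3.64, 5.50 and 9.43 CPM at 3 counts over the gate. Il1a was called lower in basophils than in neutrophils (edgeR adjusted p = 0.000745), on 0 against those 8 UMIs, and without the top barcode of each library neutrophils had 33.0 and 0 CPM.

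The antagonist Il1rn was counted in the same myeloid gates as Il1b, and hardly in basophils. Neutrophils had 972 and 1567 CPM, monocytes 254 and 252 CPM, and the Cx3cr1-high gate 52.4 and 30.2 CPM, an order that held in both libraries. All 153 monocyte UMIs were in the 50 barcodes with at least 5 UMIs of macrophage markers (316 and 327 CPM), and the other 14 barcodes, with 131877 UMIs, had 0. Macrophage markers summed to 5398 and 1532 CPM in the monocyte gate, and their part in the Il1rn level, in the comparisons of monocytes with basophils and in the fold below was not tested. The Cx3cr1-low gate had 57.4 and 287 CPM, but 49 of the 57 UMIs in replicate 2 came from 1 barcode, and without the top barcode of each library it had 32.5 and 41.4 CPM. Basophils had 1 UMI in each library (2.42 and 2.43 CPM), DCs 5 and 0 UMIs, T cells none, and the tumour gate 0.168 and 0.201 CPM. In monocytes Il1rn was 104-fold higher than in basophils (95% counting interval 28.3 to 866, from 153 and 2 UMIs), and in neutrophils 531-fold higher (143 to 4452). The log2 fold changes of basophils were -6.63 ± 0.82 against monocytes (SE, edgeR adjusted p = 5.99e-06) and -8.49 ± 0.78 against neutrophils (SE, edgeR adjusted p = 1.70e-07), and both calls held under all 12 alternatives run. In the comparison with monocytes 16.2% of all genes were called, and 4 of the 10 members: Il1rn and Il18 lower, Il1rl1 and Il18r1 higher. Neutrophils exceeded monocytes by 1.86 ± 0.42 (SE, edgeR adjusted p = 0.00656), a call lost with each barcode in every gate (0.70, adjusted p = 0.634). Il1rn and Il33 were the only calls among 9 testable members between the Cx3cr1-high and Cx3cr1-low gates, both lower in the former, where 2.16% of genes were called. For Il1rn that was -2.07 ± 0.45 (SE, edgeR adjusted p = 0.0155), lost with DESeq2 (adjusted p = 0.102), and it rests on the barcode named above.

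Agonist and antagonist were also set against each other within gates, as the share of Il1rn in the UMIs of Il1a, Il1b and Il1rn. This share compares transcripts captured with unequal efficiency, so it is read between gates and not as a ratio of proteins. It was 0.206% and 0.235% in basophils (2 of 911 UMIs over both libraries), 5.80% and 14.3% in neutrophils, 10.5% to 23.5% in the Cx3cr1-high gate, 26.3% and 44.0% in monocytes, and 33.3% and 51.8% in the Cx3cr1-low gate. The basophil interval reached no higher than 1.30% in either library and lay below the intervals of neutrophils, monocytes and both C1qa gates. In the monocyte gate all Il1rn UMIs were in barcodes with macrophage markers. The other 14 barcodes held 95 Il1b, 0 Il1a and 0 Il1rn UMIs, and the part of those markers in the monocyte share was not tested. The DC share was 8.06% and 0% (5 of 62 and 0 of 44 UMIs). Its interval in replicate 2 reached 8.04% and overlapped that of basophils. Monocytes and neutrophils were apart in both libraries, while monocytes and the Cx3cr1-low gate overlapped, where in replicate 2 the barcode named above held 49 of the 57 Il1rn UMIs. Within single barcodes, Il1b and Il1rn were found together in 7 of 15 and 8 of 16 neutrophils. For monocytes this was 4 of 29 and 9 of 35, and for basophils 0 of 74 and 0 of 64. Only 1 basophil barcode in each library held Il1rn, so the 0 restates its low level. Il1b was in 15 of 15 and 15 of 16 neutrophil barcodes, so there the joint counts mostly follow Il1rn.

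**Figure D3:**
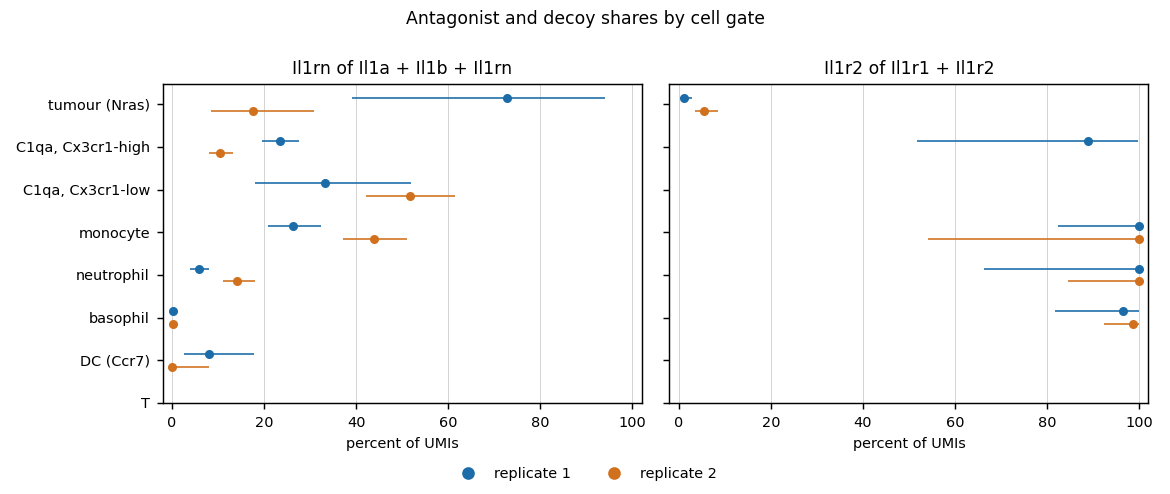
Left, Il1rn as a percent of the UMIs of Il1a, Il1b and Il1rn; right, Il1r2 as a percent of the UMIs of Il1r1 and Il1r2, by gate and library with exact 95% binomial intervals, which cover counting error only (values on fewer than 5 UMIs are left out). Basophils stand at 0.206% and 0.235% on the left and at 96.4% and 98.6% on the right.

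The bases before the starts of Il1b and Il1rn are given because the basophil gate had Il1b with hardly any Il1rn. The neutrophil and monocyte gates had both, with all Il1rn of the monocyte gate in barcodes with macrophage markers. RefSeq (GRCm38.p6) starts were found for all 10 members, with 17 promoters of 250 bases before to 50 after the start. There were 4 short motifs, searched on both strands. The letters AGATAA stood for GATA factors, TTNNGNAA for C/EBP, GGG followed by any 5 bases and CC for NF-kB, and GAGGAA for PU.1. The C/EBP letters were in 10 of the 17 and in 40.7% of 32544 promoters, NF-kB in 6 of 17 and 51.0%, and PU.1 in 4 of 17 and 28.1%. Capitals mark C/EBP matches below, and 2 of the 3 in Il1rn overlap. Il1rn has 3 RefSeq starts, of which the most upstream had 0 C/EBP matches. Il1b lies at chr2:129371090-129371389 on the minus strand, and the Il1rn start shown at chr2:24345121-24345420 on the plus strand.
Il1b: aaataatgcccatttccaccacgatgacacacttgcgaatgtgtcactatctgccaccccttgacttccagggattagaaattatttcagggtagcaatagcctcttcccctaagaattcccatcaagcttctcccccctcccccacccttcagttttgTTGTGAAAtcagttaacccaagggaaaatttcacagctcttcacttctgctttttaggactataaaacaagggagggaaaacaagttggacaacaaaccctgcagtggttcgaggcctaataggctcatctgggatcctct
Il1rn: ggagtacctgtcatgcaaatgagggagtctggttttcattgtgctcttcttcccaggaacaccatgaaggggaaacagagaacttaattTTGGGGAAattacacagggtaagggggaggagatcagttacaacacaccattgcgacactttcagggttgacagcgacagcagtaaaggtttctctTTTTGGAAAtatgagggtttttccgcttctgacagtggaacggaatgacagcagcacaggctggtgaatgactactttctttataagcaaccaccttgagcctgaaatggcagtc

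The signalling receptor Il1r1 was counted mostly in tumour cells, and its accessory chain Il1rap in tumour and immune gates alike. The tumour gate had 7.30 and 7.56 CPM (7.43 ± 0.178, SD, n = 2), from 348 and 339 UMIs in 264 of 986 and 246 of 830 barcodes, and held 87.0% of the 790 Il1r1 UMIs in kept barcodes, against 78.8% of the UMIs of all genes. All 7 immune gates together had 0.919 and 0.867 CPM, from 3 UMIs in each library. Monocytes, neutrophils, DCs and T cells had none, which over the gates allows up to 4.95, 42.5, 5.50 and 9.43 CPM at 3 counts. In neutrophils and T cells a level like that of tumour cells lies below that bound and is not excluded. The basophil gate's 2 UMIs were both in the 4 barcodes with tumour markers. Against the Cx3cr1-high gate, which had 0.504 and 1.01 CPM, Il1r1 was 9.83-fold higher in tumour cells (counting interval 3.35 to 47.8, from 687 and 3 UMIs), with a log2 fold change of 3.29 ± 0.57 (SE, edgeR adjusted p = 5.82e-05), although DESeq2 gave an adjusted p of 0.131. The accessory chain Il1rap had 10.6 and 11.4 CPM in the tumour gate, 81.6% of its 1245 UMIs, close to that gate's share of the UMIs of all genes. Its mean there was 1.52-fold that of the pooled immune gates, and below its levels in basophils and neutrophils given further on, a difference that was not tested. The Cx3cr1-high gate had 3.03 and 5.54 CPM, and the log2 fold change of the tumour gate against it was 1.39 ± 0.40 (SE, edgeR adjusted p = 0.00475). In that comparison 48.6% of all genes were called and 8 of the 10 members, Il1r1 and Il1rap higher and Il1a, Il1b, Il1rn, Il1r2, Il1rl1 and Il18 lower. The median over all genes was 0.40.

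Both chains were found in 109 of 986 and 109 of 830 tumour barcodes. Barcodes with Il1r1 were deeper, with median UMIs of 48050 and 53085 against 40025 and 44622 in those without. Among tumour barcodes that also had Csf3 (G-CSF, the growth factor of granulocytes), Il1r1 was 8.70 and 8.29 CPM, against 6.93 and 7.37 CPM in those without Csf3, whose median depth was lower (39918 and 44856 against 53438 and 59166 UMIs). The share of tumour barcodes with an Il1r1 UMI was 28.1% as counted and 0.833% when thinned to 1000 UMIs, so single-cell co-detection is limited by depth. Il1rap was also counted in neutrophils, at 30.4 and 212 CPM from 9 UMIs, and was higher there than in monocytes (8.18 and 11.1 CPM) by 3.21 ± 0.89 (SE, edgeR adjusted p = 0.0262), a call lost at 10% mitochondrial UMIs (adjusted p = 0.11) and with each barcode in every gate (adjusted p = 0.0891). In basophils it was 12.1 and 19.5 CPM, from 13 UMIs of which 3 were in the barcodes with tumour markers.

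**Figure D4:**
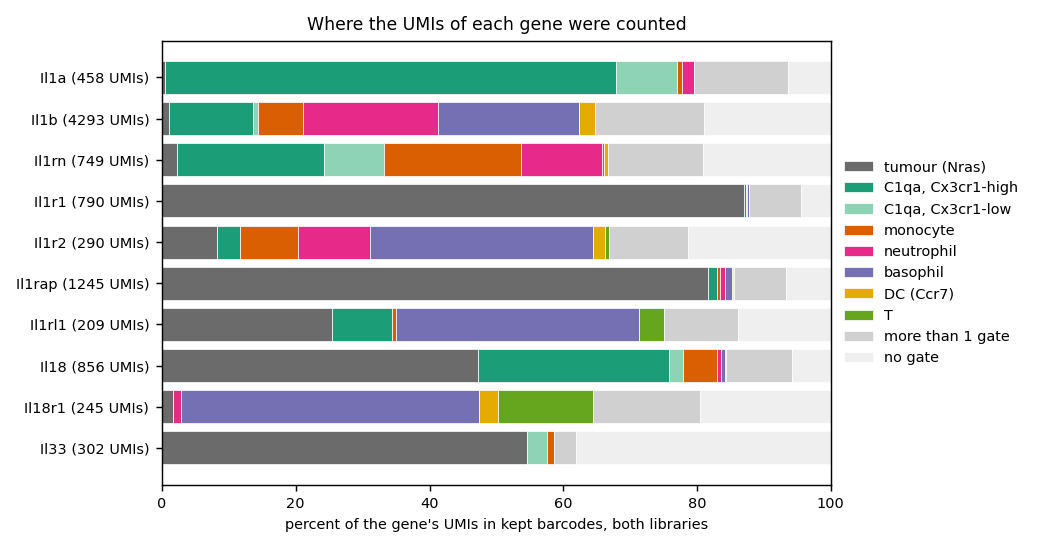
Share of each gene's UMIs by gate, over both libraries, in percent of all its UMIs in kept barcodes (number in brackets); the pale bars are barcodes passing more than 1 gate or none. The agonists and the antagonist lie mainly in immune gates, and Il1r1 (87.0%) and Il1rap (81.6%) in the tumour gate, which held 78.8% of the UMIs of all genes.

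The decoy receptor Il1r2 was counted mainly in the gates with the highest levels of Il1b. Neutrophils had 273 and 584 CPM with a UMI in 8 of 15 and 11 of 16 barcodes, basophils 65.4 and 170 CPM in 8 of 74 and 10 of 64 barcodes, and monocytes 77.7 and 16.6 CPM. Neutrophils were above both in each library, and basophils and monocytes overlapped. Neutrophils exceeded monocytes by 2.88 ± 0.69 (SE, edgeR adjusted p = 0.0096), a call lost with each barcode in every gate (adjusted p = 0.102), and basophils differed from monocytes by 1.5 ± 0.55 (SE, edgeR adjusted p = 0.0671), which was not called. The latter was called with legacy deviances (adjusted p = 0.000985), and called the other way with each barcode in every gate (-1.61, adjusted p = 0.0363). DCs had 7.43 and 10.9 CPM, T cells 0 and 10.6 CPM, and the tumour gate 0.084 and 0.446 CPM, of which 17 of 20 UMIs in replicate 2 were in 1 barcode. The 8 and 2 UMIs of the Cx3cr1-high gate came from 1 barcode in each library, so the lower value in tumour cells (-3.19 ± 1.03, SE, edgeR adjusted p = 0.0112) rests on them. As a share of the UMIs of both receptors, Il1r2 made up 100% in neutrophils (31 of 31) and monocytes (25 of 25), 96.4% and 98.6% in basophils (97 of 99 over both libraries) and 3.38% in the tumour gate (24 of 711). With each barcode in every gate the basophil level was 9.66 CPM. Of the basophil barcodes with Il1r2, 2 of 8 and 4 of 10 also had Il1b, beside 29 of 74 and 18 of 64 in the whole gate.

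For IL-18, cytokine and receptor were counted in different gates. Il18 had 67.1 and 56.4 CPM in the Cx3cr1-high gate, 62.6 and 30.2 CPM in the Cx3cr1-low gate, and 61.3 and 77.4 CPM in monocytes. The first and the third of these did not pass the test against the Cx3cr1-low gate (0.38 ± 0.45 and 0.54 ± 0.51, SE, edgeR adjusted p = 0.872 and 0.703), and they were not tested against each other. Tumour cells had a lower level, 4.14 and 4.61 CPM, with a log2 fold change of -3.79 ± 0.26 against the Cx3cr1-high gate (SE, edgeR adjusted p = 1.52e-11). As the most numerous and deepest cells they held 47.2% of the 856 Il18 UMIs, below their 78.8% of the UMIs of all genes. Against the mean of all immune gates, Il1b and Il18 were the 2 testable members and both were lower in tumour cells, where 43.3% of genes were called (85.0% of them higher). For Il18 this was -1.81 ± 0.61 (SE, edgeR adjusted p = 0.0155) and for Il1b -8.76 ± 3.38 (SE, edgeR adjusted p = 0.0349), and with at least 2 UMIs of the single-UMI gate genes both had an adjusted p of 1. The receptor chain Il18r1 had 124 and 141 CPM in basophils, in 31 of 74 and 33 of 64 barcodes, and 108 and 111 CPM in T cells. The difference of T cells from basophils was not called (-0.59 ± 0.40, SE, edgeR adjusted p = 0.469) but was called the other way with each barcode in every gate (2.37, adjusted p = 0.00467), and 7 of the 35 UMIs of the T gate were in barcodes with NK markers. The T gate without those had 82.4 and 120 CPM. Neutrophils had 0 and 79.7 CPM from 3 UMIs, DCs 11.1 and 14.5 CPM, the tumour gate 4 UMIs in all, and both C1qa gates and monocytes none. Il18r1 was at least 26.7-fold higher in basophils than in monocytes (edgeR adjusted p = 1.26e-05), a call lost with each barcode in every gate (adjusted p = 0.113), where the basophil level was 13.5 CPM.

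T cells and DCs otherwise carried little of the family. Against basophils, T cells were lower for Il1b (-8.75 ± 1.11, SE, edgeR adjusted p = 1.09e-05) and Il1r2 (-4.53 ± 1.0, SE, edgeR adjusted p = 0.00451), which were 2 of 8 testable members where 9.95% of genes were called (29.3% of them higher, or 40.2% with DESeq2 size factors). With each barcode in every gate Il1b had an adjusted p of 0.0581 and Il1r2 turned to 0.68. Against the other immune gates, Il1b was the 1 call in T cells of the 2 testable members (-7.43 ± 1.19, SE, edgeR adjusted p = 0.000155), where 8.26% of genes were called. DCs were lower than monocytes for 3 of 9 testable members, Il1b (-1.72 ± 0.53, SE, edgeR adjusted p = 0.0308), Il1rn (-5.07 ± 0.70, SE, edgeR adjusted p = 1.99e-05) and Il18 (-5.55 ± 0.94, SE, edgeR adjusted p = 0.000126). There 14.6% of genes were called, 42.0% of them higher, or 59.3% with DESeq2 size factors, and Il1b had an adjusted p of 0.0832 with those factors and 0.29 with DESeq2. The same 3 members, all that were testable, were lower in DCs than in the mean of the other myeloid gates, where 16.5% of genes were called. Il1b there had an adjusted p of 0.139 with DESeq2. In the monocyte gate 153 of 153 Il1rn and 41 of 43 Il18 UMIs were in barcodes with macrophage markers. The part of those markers in both comparisons of DCs was not tested.

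**Figure D5:**
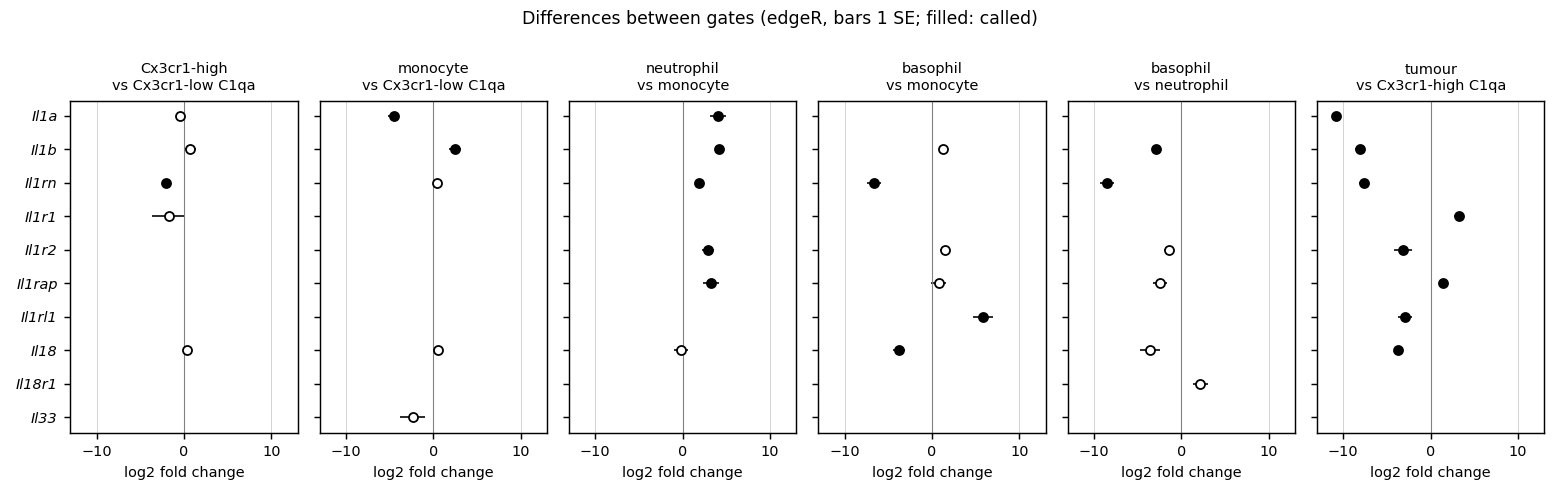
Log2 fold changes of the members in 6 comparisons between gates, with bars of 1 SE; filled points were called, and a member with 0 UMIs in one of the gates is not drawn. Neutrophils stand to the right of monocytes for 5 members, and basophils far to the left of both monocytes and neutrophils for Il1rn, at -6.63 and -8.49.

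Among the gates, the IL-33 receptor Il1rl1 had its highest level in the basophil gate, in part in barcodes with mast cell transcripts. The basophil gate had 126 and 58.4 CPM, in 23 of 74 and 11 of 64 barcodes, and 76 of the 209 UMIs of the gene, while the tumour gate held 53. Of the basophil gate's 76 UMIs, 36 were in 5 barcodes with at least 5 UMIs of mast cell markers (433 and 1002 CPM). The other 133 barcodes had 73.7 and 34.9 CPM. The T gate without barcodes with NK markers had 0 and 48.1 CPM, so in replicate 2 it stood above those 133. Monocytes had 1 UMI, so Il1rl1 was 55.9-fold higher in the basophil gate (counting interval 9.74 to 2237), with a log2 fold change of 5.79 ± 1.15 (SE, edgeR adjusted p = 0.00143), a call lost with each barcode in every gate (adjusted p = 0.111). Both values count the 36 UMIs in barcodes with mast cell markers, whose part in them was not tested. In the Cx3cr1-high gate 15 of 19 UMIs were in 1 barcode with mast cell markers, so the lower level of tumour cells against that gate (-2.95 ± 0.76, SE, edgeR adjusted p = 0.00259; DESeq2 adjusted p = 0.131) rests on it. The T gate had 0 and 8 UMIs, the latter in 3 barcodes of which 2 had Foxp3, the factor of regulatory T cells, 3 had Il2ra and 0 had Cd8a. The tumour gate had 0.483 and 0.669 CPM. Il1rl1 and Il18r1 were found together in 8 and 3 basophil barcodes, fewer than had either alone.

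Il33 itself was sparse. The tumour gate had 1.20 and 2.41 CPM, from 57 UMIs in 22 barcodes and 108 UMIs in 29, with up to 8 and 21 UMIs in 1 barcode. In replicate 2 Csf3-positive tumour barcodes had 6.27 CPM against 1.45 CPM in the others, while replicate 1 had 1.10 against 1.22 CPM. Oligodendrocyte markers summed to 1.87 and 12.1 CPM in the tumour gate, and their part in these levels was not tested. The Il33 counts in the Cx3cr1-low gate were 9 UMIs in 1 barcode without Malat1, on which the call against the Cx3cr1-high gate rests (edgeR adjusted p = 0.0354), and in monocytes 3 UMIs in 1 barcode. That call was lost with each barcode in every gate, with at least 2 UMIs of the single-UMI gate genes and with no filter (adjusted p = 0.0584, 0.0514 and 0.0589). The other 5 gates had none, and 115 of 302 UMIs lay in barcodes that passed no gate.

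Il1rl1 stands beside Il18r1, Il1r1 and Il1r2 on chromosome 1. The letters of the GATA motif were in 2 of the 17 member promoters, close to the 11.2% of all promoters. Both were starts of Il1rl1, which was singled out after the matches were seen. The windows, at chr1:40429320-40429619 and chr1:40439379-40439678 on the plus strand (GRCm38.p6), are shown for that reason, with capitals for AGATAA or its reverse complement. A match is a description of the letters and says nothing of binding.
Il1rl1, first start: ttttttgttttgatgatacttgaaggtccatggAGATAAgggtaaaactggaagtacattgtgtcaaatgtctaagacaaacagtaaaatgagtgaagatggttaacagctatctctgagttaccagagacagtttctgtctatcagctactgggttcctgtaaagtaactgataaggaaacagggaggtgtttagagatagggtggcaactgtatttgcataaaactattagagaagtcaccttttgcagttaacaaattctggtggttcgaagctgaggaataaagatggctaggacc
Il1rl1, second start: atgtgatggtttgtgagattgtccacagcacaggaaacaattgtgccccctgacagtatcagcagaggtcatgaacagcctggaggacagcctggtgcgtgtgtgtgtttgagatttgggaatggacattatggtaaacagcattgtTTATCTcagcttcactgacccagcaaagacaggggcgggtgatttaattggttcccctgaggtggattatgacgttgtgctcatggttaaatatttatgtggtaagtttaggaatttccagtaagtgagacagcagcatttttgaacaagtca

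Other genes of the pathway were read from lists. Of the other family ligands, binding proteins and receptors, 5 of 11 were tested. Il1f9, which encodes IL-36 gamma, was counted in neutrophils alone among the gates, at 608 and 531 CPM, and was called higher there than in monocytes (edgeR adjusted p = 3.85e-05). Il18rap, the accessory chain of the IL-18 receptor, had 208 and 199 CPM in basophils, 182 and 212 CPM in neutrophils and 16.4 and 0 CPM in monocytes, with log2 fold changes against monocytes of 4.99 ± 0.58 and 4.41 ± 0.92 (SE, edgeR adjusted p = 2.51e-06 and 0.00306). Il18bp, which neutralises IL-18, had 217 and 209 CPM in the Cx3cr1-high gate against 8.46 and 8.78 CPM in tumour cells. Sigirr, an inhibitory receptor of the family, went the other way, with 3.03 and 2.52 CPM against 61.8 and 57.0 CPM (4.44 ± 0.31, SE, edgeR adjusted p = 2.08e-10).

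Of the genes of cytokine processing and release, 9 of 11 were tested, and 8 were lower and 0 higher in tumour cells than in the Cx3cr1-high gate, where 48.6% of all genes were called (median log2 fold change -5.24, against 0.40 over all genes). Pycard, the inflammasome adaptor, had 2.12 and 0.892 CPM in tumour cells against 884 and 875 CPM. Nlrp3, an inflammasome sensor, had 304 and 292 CPM in neutrophils and was higher there than in monocytes (2.27 ± 0.51, SE, edgeR adjusted p = 0.00513), whereas Pycard was lower (-4.18 ± 0.72, SE, edgeR adjusted p = 0.000552). In basophils 0 of the 9 were higher and 3 lower than in monocytes, where 16.2% of all genes were called, among them Pycard and Casp4, while Nlrp3 had 65.4 and 85.1 CPM against 40.9 and 47.0 CPM. In DCs 5 were lower and 0 higher than in monocytes, where 14.6% of all genes were called.

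Of 14 receptor signalling genes, all were tested and 0 were higher and 5 lower in tumour cells than in the Cx3cr1-high gate. Of all 13468 genes, 3866 were higher and 2674 lower in tumour cells, 48.6% together. Irak3, an inhibitor of the pathway, was lower by -5.25 ± 0.46 (SE, edgeR adjusted p = 7.58e-10). In neutrophils 1 was higher and 1 lower than in monocytes, Irak2 and Ikbkb, where 7.96% of all genes were called. Of 18 NF-kB response genes, 17 were tested. In tumour cells 4 were higher and 8 lower than in the Cx3cr1-high gate (of all genes, 3866 higher and 2674 lower, 48.6% together), with Csf2 and Csf3 among the higher and Tnf and Icam1 among the lower. In neutrophils 3 were higher than in monocytes and 0 lower (7.96% of all genes called), with Cxcl2, a neutrophil chemoattractant, at 20049 and 4461 CPM against 57.3 and 8.29 CPM. A list of 6 cytokines held the type 2 cytokines Il4, Il5 and Il13, besides Il6, Areg and Csf1, and 5 were tested. All 5 were higher in basophils than in monocytes, where 16.2% of all genes were called. The median log2 fold change was 7.02, against 0.08 over all genes. It was 6.09 with the 2 genes at 0 in monocytes set to the fold that 3 counts allow. Il4 had 729 and 980 CPM in basophils and Il13 43.6 and 31.6 CPM, while monocytes had none of either. Il6, which also stands in the NF-kB list, had 436 and 442 CPM in basophils against 4.09 and 8.29 CPM in monocytes.

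Over the mean levels of the 8 gates, each member was set beside the 13467 other tested genes by Pearson's r of log2(CPM + 1). The points share 2 libraries and differ in depth, so the values are descriptions. Il1b was most like Arid3a (r = 0.984), Snap23 and Zfp36, Il1a like P2ry13 (r = 0.986), Wwp2 and Tnfsf13b, and Il1rn like Wfdc17 (r = 0.981) and 1600010M07Rik. Il1r1 was most like Celsr2 (r = 0.992), Epb41l5 and Gm4610, Il1rap like Cdyl (r = 0.964), Sec24b and Xpc, and Il1r2 like Tle3 (r = 0.986), Junb and Apobr. Il18 was most like Tlr2 (r = 0.989), Mtus1 and Clec4a2, Il18r1 like Sept1 (r = 0.953), Prkcq and Rhof, Il1rl1 like D830025C05Rik (r = 0.957), Ssbp2 and A330035P11Rik, and Il33 like Stac2 (r = 0.969), Gm26590 and Spaca9.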

How the data were processed

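The authors deposited raw UMI counts, whole numbers per gene and barcode, for 2 libraries. Per the labels' protocols, Cell Ranger 3.1 and STAR made them on mm10. The protocols also mention aggregation to a common depth, yet library totals differ, and nothing was rescaled here. The gene annotation is not given in the sources used here.

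UMIs were summed per library and gate over barcodes passing exactly 1 gate. Sums of 10 or more cells per library (16 sums, 7 residual degrees of freedom) entered one edgeR 4.0.16 fit in R 4.3.3, with the library as a block, since the sums of a library come from 1 run. TMM factors were used, genes needed at least 10 counts in at least 2 sums, and p-values were adjusted over all 13468 genes. A contrast against several gates uses the mean of their log2 levels, and a member with 0 counts in a component gate has no usable value there. Of the 12 comparisons, 5 were added after seeing the data for that reason. CPM, exact 95% intervals and shares used scipy 1.17.1, scanpy 1.11.5 and pandas 2.3.3. Intervals and floors (3 counts) cover counting error only. Counting is per transcript end, so levels are compared between gates, not between genes. Scrublet marked 14 barcodes, too few to say that it worked, so doublets stayed in except those passing 2 gates. DESeq2 1.42.0 and other filters were alternatives. The code was tested on simulated data.

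Members, gates, lists and markers were chosen with earlier results of these data known. Named genes are the members, per list and comparison at most 2 called genes in each direction with the largest fold change, and the 3 genes most like each member by correlation (1 is not reported here), besides list genes chosen after their values were seen: Il18rap, Il18bp, Sigirr, Nlrp3, Il6 and Il13 where that rule did not name them.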

Additional observations from a re-analysis of the deposited data

Results flagged for a closer look

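Signal was also present outside the comparisons, in the 331 kept barcodes that passed no gate. Over these barcodes Il1b had 123 CPM (817 UMIs in 38 barcodes), Il1rn 21.6, Il33 17.4, Il1rap 12.5, Il1r2 9.37, Il18 7.56, Il18r1 7.25, Il1r1 5.29, Il1a 4.38 and Il1rl1 4.38 CPM. Each lies above the level that a count of 0 allows.

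Marker transcripts in those barcodes moved with some of these counts. Barcodes with at least 5 UMIs of oligodendrocyte markers, 12 in all, held 95 of the 115 Il33 UMIs (542 CPM). The 64 with monocyte markers held 640 of the 817 Il1b UMIs, the 21 with basophil markers 17 of 29 Il1rl1 and 23 of 48 Il18r1 UMIs, and the 88 with tumour markers 26 of 35 Il1r1 UMIs. A barcode can carry several lists, since 34 with macrophage markers held 85 of the same 115 Il33 UMIs. The part of the markers in these levels was not tested.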

How the results depend on the processing

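The 36 member calls were recomputed under each alternative. All kept direction and call with at least 500 genes per barcode, without the replicate block and with legacy edgeR deviances, and all 32 with a value did with filterByExpr. The library was in the fit as the block because its sums share 1 run, and without it 3 further members were called, among them Il1b in basophils against monocytes (adjusted p = 0.0439). Kept were 35 of 36 at 10% mitochondrial UMIs and with DESeq2 size factors, 34 without scrublet doublets, 33 with no filter, 32 with at least 2 UMIs of the single-UMI gate genes, 31 of 32 without barcodes lacking Malat1 (where the Cx3cr1-low gate had too few barcodes) and 29 of 35 with DESeq2. Counting each barcode in every gate kept 23, lost 10 and turned 3. In that setting, which adds the tumour-and-basophil barcodes, the basophil gate held 4858204 and 5167168 UMIs, against 412636 and 411300 in the main one.

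Counts of called genes moved by over 1.5 times with each barcode in every gate: to 325 from 906 for monocytes against the Cx3cr1-low gate, 220 from 1072 for neutrophils against monocytes, 4733 from 2318 for basophils against other immune gates, 4851 from 2180 against monocytes, 3139 from 1314 against neutrophils, and 3089 from 1340 for T cells against basophils. With filterByExpr, which tests fewer genes (6420), they were 2815 from 5826 for tumour against immune gates and 3369 from 6540 against the Cx3cr1-high gate.

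With each barcode in every gate the Il1rn share was 19.2% in the Cx3cr1-low gate and 0.857% in basophils, and the Il1r2 share 98.1% in monocytes, 98.5% in neutrophils and 64.1% in basophils. Log2 fold changes turned in that setting for Il1b (-1.49 for Cx3cr1-high and -0.0231 for monocytes against Cx3cr1-low, -1.33 for basophils against other immune gates, -2.06 against monocytes, the last with an adjusted p of 0.0128), Il1r2 (-1.61 for basophils against monocytes, 0.68 for T cells against basophils), and, for T cells against basophils, Il1rl1 (1.20), Il18 (1.58) and Il18r1 (2.37). Il18 in neutrophils against monocytes turned there (0.0375), with DESeq2 size factors (0.15) and with DESeq2 (0.16), and Il18 in T cells against basophils without scrublet doublets (7.0). The cause was not tested.

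Precision is limited by the 31 neutrophil and 52 T barcodes, by 2 libraries of 1 group and by single barcodes that carry much of a gene.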
